A study of Homo sapiens with 8 samples.

Results

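Cadherins and protocadherins were taken from the gene counts by name: CDH or PCDH followed by a number, or a member of the clustered protocadherin loci (PCDHA, PCDHAC, PCDHB, PCDHGA, PCDHGB and PCDHGC). Of 88 genes with such a name, 76 had at least 10 counts summed over the 8 libraries and are described here, out of 78691 genes in the count table. The other 12 (CDH8, CDH9, CDH10, CDH11, CDH16, CDH17, CDH20, PCDH10, PCDHA14, PCDHGA3, PCDHGC4 and PCDHGC5) fell under that minimum. The 76 comprised 5 classical type I cadherins, 11 type II and other cadherins, 10 non-clustered protocadherins, 15 alpha, 16 beta and 19 gamma protocadherins.

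Poly(A) RNA was sequenced from 2 prostate cancer lines with 2 libraries in each of 4 groups. C4-2B, a castration-resistant adenocarcinoma line, carried an empty lentiviral vector (C4-2B control) or a lentiviral vector that expresses human MYCL and EGFP from the EF1A promoter (C4-2B MYCL), so all C4-2B cells had been transduced and the introduced MYCL is not under its own promoter. NCI-H660, a neuroendocrine prostate cancer line, received a non-targeting control (NCI-H660 shCtrl) or an adenoviral vector with several miR30-adapted shRNAs against MYCL (NCI-H660 shMYCL). The titles call only the C4-2B control libraries biological replicates and do not say whether cultures were separate, so p-values measure the spread between these libraries, which may be technical. MYCL itself was at 5.47 and 6.39 TPM (a level scaled by gene length and library size) in C4-2B control and at 1363 and 1435 in C4-2B MYCL, and at 64.3 and 48.2 in NCI-H660 shCtrl against 6.18 and 7.0 in NCI-H660 shMYCL. The libraries held between 15177100 and 32344200 counts, and the 76 genes took between 0.0786% and 0.0928% of them. All 7 luminal markers were at 1 TPM or more in every C4-2B library and all 7 neuroendocrine markers in every NCI-H660 library, where 1 luminal marker (FOXA1) also reached it.

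Cadherins are single-pass adhesion proteins whose extracellular repeats bind the same or a related cadherin on the neighbouring cell in the presence of calcium. The classical members hold catenins on the inside and so join the junction to actin. E-cadherin (CDH1) is the form of prostate luminal epithelium, P-cadherin (CDH3) that of basal epithelium, and N-cadherin (CDH2) that of neurons and mesenchyme. Protocadherins are mostly neural and act in recognition between cells. Those of the alpha, beta and gamma loci lie side by side on chromosome 5, each with its own promoter, and single neurons use different subsets of them. In the alpha and gamma loci, the variable first exon of each member is spliced to constant exons that the whole locus shares, whereas beta members have no such shared exons.

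The first constant exons of the alpha and gamma loci show why counts of single members have to be read as shared sequence. Both were read from hg38 on the plus strand with GENCODE 44 annotation, at chr5:140978949-140979007 (alpha, 59 bases, present in all 15 alpha members) and chr5:141494807-141494865 (gamma, 59 bases, present in all 19 gamma members). Capitals mark the 39 positions at which they hold the same base.
alpha: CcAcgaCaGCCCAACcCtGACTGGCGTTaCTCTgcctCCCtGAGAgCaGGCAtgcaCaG
gamma: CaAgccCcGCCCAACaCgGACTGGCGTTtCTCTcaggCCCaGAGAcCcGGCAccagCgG
The identity between the loci was 66.1%, but within a locus the exon is identical by construction. A read that lies in it alone could come from any member of its locus. Between 21.4% and 56.6% of the exon bases of an alpha member, and between 27.5% and 64.4% of those of a gamma member, were annotated to another entry on the same strand as well. For beta members the highest share on the same strand was 9.54%. Entries on the opposite strand covered 43.9% of the exon bases of PCDHB2, 21.2% of PCDHB16, 14.7% of PCDHB5 and 11.7% of PCDHB3. Whether counting used the strand is not given in the sources used here. PCDH20 shared 91.3% of its exon bases with the entry ENSG00000197991, which held 2.94 counts in NCI-H660 shCtrl replicate 1 and 0 in the other 7 libraries.

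The promoters of the clustered members also share sequence. A conserved element around the letters CGCT is known from these promoters. For each locus, the 10-letter word with CGCT found in the windows of the most members was picked, after the windows had been looked at. The counts in the members were thus the basis of the choice, and all windows include those of the members, so the shares below are no test. The words were searched, on both strands, in the RefSeq windows from 250 bases before to 50 after each start (GRCh38.p14). Windows were at hand for 13 alpha, 14 beta and 18 gamma members. The alpha word TGATGTCGCT was in 8 of the 13 and in 0.0342% of all 35116 windows. The beta word GGTGGCGCTG was in 12 of the 14 and in 0.276% of all windows, and the gamma word GCGCCGCTGT was in 9 of the 18 and in 0.131% of all windows. Excerpts are given of 6 members that hold the word, which is in capitals. They are among the more abundant members of their locus in NCI-H660 or, for PCDHGA8, in C4-2B. PCDHA10, PCDHAC2, PCDHGC3 and PCDHGB2 are also among the more abundant in NCI-H660, and their windows did not hold the word of their locus. All 6 excerpts lie on the plus strand of chromosome 5.
PCDHA4, chr5:140806974-140807013: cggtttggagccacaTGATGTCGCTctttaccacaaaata
PCDHB2, chr5:141094540-141094579: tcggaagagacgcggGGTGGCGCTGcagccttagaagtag
PCDHB5, chr5:141135175-141135214: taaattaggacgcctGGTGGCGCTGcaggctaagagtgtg
PCDHB8, chr5:141177773-141177812: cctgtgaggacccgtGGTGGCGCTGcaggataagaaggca
PCDHGB1, chr5:141350022-141350061: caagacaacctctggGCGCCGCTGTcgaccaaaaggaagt
PCDHGA8, chr5:141392565-141392604: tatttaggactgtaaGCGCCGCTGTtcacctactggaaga
The canonical E-box CACGTG, letters that MYC family proteins bind with MAX, was in the windows of PCDHA9, PCDHA10 and PCDHA11 and of no other of the 45 clustered members with a window, against 7.26% of all windows. It was in none of the windows of the 17 other members that had one. These are matches of letters only.

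In levels per gene length, the repertoires of the 2 lines differed in breadth. The C4-2B libraries had 5 or 6 members at 1 TPM or more, whereas the NCI-H660 libraries had between 30 and 40. The share of all genes at 1 TPM or more is not given here. Genes in general also lay higher in TPM in NCI-H660 controls, by a median of 0.52 on log2(TPM + 1). CDH1 made up 74.2% to 85.7% of the summed TPM of the 76 genes in C4-2B but 17.5% to 19.4% in NCI-H660. The clustered members made up 1.02% to 1.33% in C4-2B but 33.2% to 43.96% in NCI-H660. In bulk RNA, fewer cells that use a gene and less RNA per cell cannot be told apart, for this and for every value that follows.

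**Figure D1:**
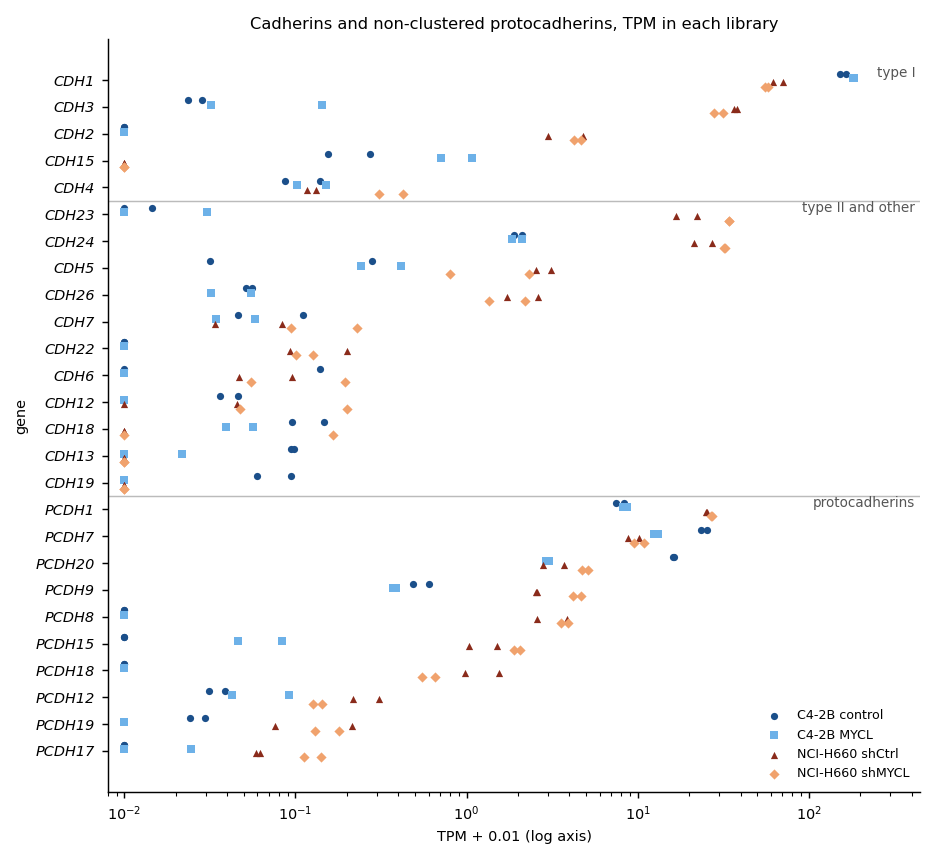
TPM plus 0.01 (log axis) of the 26 members outside the clustered loci, with 1 point per library and 2 libraries in each of the 4 groups. CDH1 lies highest in all 8 libraries, and CDH3, CDH23 and CDH2 are at or near 0 in C4-2B (left edge) and between 2.97 and 37.9 TPM in NCI-H660.

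Among the type I cadherins, CDH1 was at 152.0 and 166.4 TPM in C4-2B control, 183.9 and 181.8 in C4-2B MYCL, 70.7 and 61.8 in NCI-H660 shCtrl and 57.7 and 55.4 in NCI-H660 shMYCL. The C4-2B libraries were all above the NCI-H660 libraries. CDH3 had 1 and 1 counts in C4-2B control and 6 and 1 in C4-2B MYCL, but 37.9 and 36.4 TPM in NCI-H660 shCtrl and 31.4 and 27.9 in NCI-H660 shMYCL, the second level after CDH1 among all members in the shCtrl libraries. CDH2 was at 0 counts throughout C4-2B. A count of 0 allows up to 3 counts, which is between 0.0922 and 0.172 CPM there (counts scaled to the library size, with TMM factors set within a line). In NCI-H660 it had 134 and 118 counts with shCtrl and 149 and 146 with shMYCL, at 4.81 and 2.97 and at 4.24 and 4.64 TPM. Each NCI-H660 library thus held CDH1, CDH3 and CDH2 transcripts, in that order of TPM, and whether single cells held all 3 was not measured.

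Between the control libraries of the lines, 60 members were tested in the fit of all 8 libraries, and 59 were called. A call here and below needs a Benjamini-Hochberg adjusted p under 0.05 in edgeR's quasi-likelihood test together with a log2 difference of 0.5 or more in either direction. Differences are given on the log2 scale with their standard error (SE). Of all 19605 genes tested, 69.8% were called, 36.5% higher and 33.3% lower in NCI-H660, and 77.8% passed the adjusted p alone, as did the same 59 members. Among the members, 51 were higher and 8 lower in NCI-H660. The median log2 difference was 5.24, or 4.76 with the 18 members that had no count in 1 of the lines set at their bound, against 0.033 over all genes tested. Only CDH4, R-cadherin, was not called, with 23 and 10 counts in C4-2B control and 7 and 5 in NCI-H660 shCtrl (edgeR adjusted p = 0.191).

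**Figure D2:**
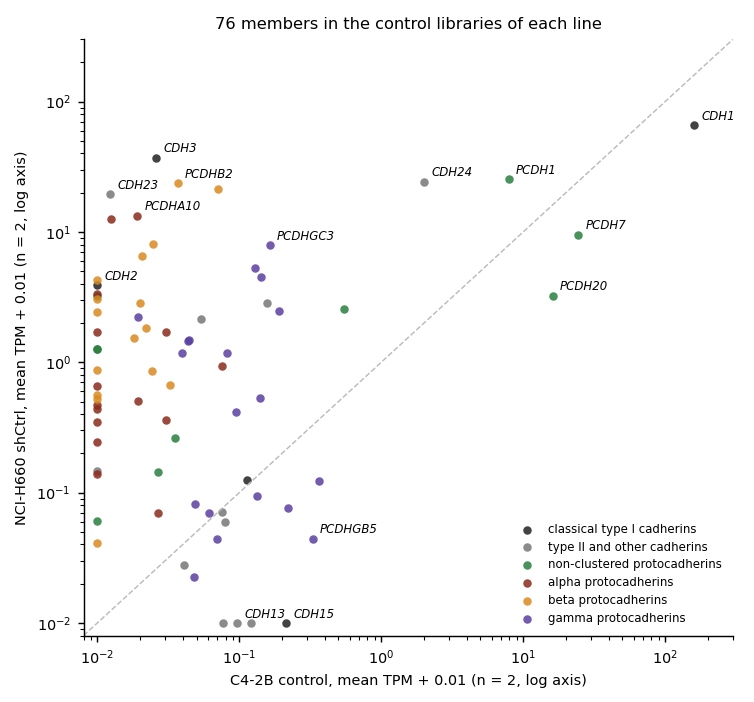
Mean TPM plus 0.01 of each of the 76 members in the control libraries of C4-2B (x) and NCI-H660 (y), both on log axes with 2 libraries each; the dashed line marks equal levels. Most clustered members lie in the upper left, while CDH1, PCDH7, PCDH20, CDH13 and CDH15 lie below the line.

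The members with the largest fitted differences toward NCI-H660 were CDH23, PCDHAC2, CDH3, PCDHA4 and PCDHB10. CDH23, which forms the tip links of hair cells with PCDH15, had 1 and 0 counts in C4-2B control and 767 and 1180 in NCI-H660 shCtrl, a ratio of 2769 (95% counting interval 496 to 109433). CDH3 had a ratio of 1648 (counting interval 456 to 13614) and PCDHA4 of 1742 (counting interval 312 to 68873). PCDHAC2 and PCDHB10 had 0 counts in both C4-2B control libraries. Against a floor of 3 counts over the group they were at least 191-fold and at least 135-fold higher in NCI-H660. Measured the same way, CDH2 was at least 119-fold higher, PCDH8 at least 121-fold and PCDH15 at least 81.1-fold. These intervals and floors cover counting error only.

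At the other end were CDH13, CDH15, PCDHGB5, PCDH20 and PCDHGA8. CDH13, the GPI-anchored T-cadherin, had 18 and 14 counts in C4-2B control and was at least 7.5-fold lower in NCI-H660, where all 4 libraries had 0. The overlapping antisense entry CDH13-AS2 had 92.3 and 75.4 counts in C4-2B control and 0 in NCI-H660. If counting did not use the strand, reads of these genes cannot be told apart where they overlap. CDH15, the M-cadherin of muscle, was likewise at 0 in NCI-H660 and at least 6.09-fold lower there. PCDH20 was lower in NCI-H660 by 2.91 on the log2 scale (SE 0.14; edgeR adjusted p = 2.94e-10), with 16.04 and 16.3 TPM in C4-2B control and 2.79 and 3.69 in NCI-H660 shCtrl. CDH1 was 3.66-fold lower in NCI-H660, and PCDH7, a protocadherin of the delta group, 3.21-fold lower. Many members had enough counts to be tested only in NCI-H660, so that the number higher there and the median are partly set by the filter. With at least 10 counts required in every library, only 6 members were left to test, and all 6 were called. Of these, 3 were higher (CDH24, PCDH1 and PCDH9) and 3 lower (CDH1, PCDH7 and PCDH20) in NCI-H660, and their median was -0.27.

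Of the 19 gamma members, 14 were tested between the lines, and 11 were higher and 3 lower in NCI-H660. PCDHGA8 had 58 and 37 counts in C4-2B control and 5 and 6 in NCI-H660 shCtrl, PCDHGA10 had 31 and 13 against 5 and 1, and PCDHGB5 had 16 and 19 against 1 and 1. PCDHGA8 had the highest count of the gamma members in each C4-2B library, with 20 and 23 counts in C4-2B MYCL. In each NCI-H660 library PCDHGC3, PCDHGB1 and PCDHGB2 had the 3 highest counts. All 12 alpha and all 15 beta members tested were higher in NCI-H660. Summed over each locus, the difference was 7.67 (SE 0.19) for alpha, 8.21 (SE 0.20) for beta and 3.12 (SE 0.11) for gamma on the log2 scale.

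**Figure D3:**
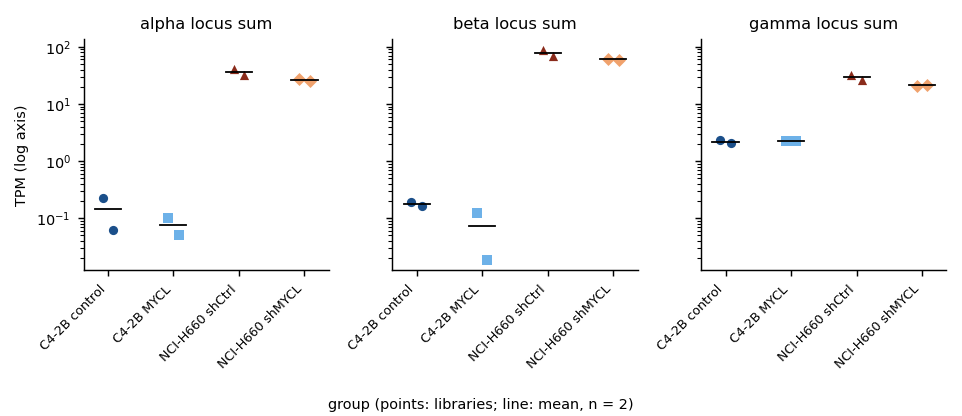
Summed TPM of the members of the alpha, beta and gamma loci (log axis) by group; points are libraries and the line is the mean of 2. The alpha and beta sums are at most 0.225 TPM in the C4-2B libraries and between 25.5 and 88.1 in NCI-H660, and the gamma sum is 2.04 to 2.30 in C4-2B against 20.9 to 31.5 in NCI-H660.

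In C4-2B cells, MYCL overexpression was accompanied by lower transcript levels of 2 abundant protocadherins, PCDH20 and PCDH7, and by few other changes among the members. Of the 76 members, 16 had enough counts to be tested and 5 were called, 2 higher and 3 lower. Of the 16866 genes tested, 19.9% were called, 11.8% higher and 8.12% lower. By the adjusted p alone 6 members passed, against 35% of genes. The groups did not overlap in 5 members that were lower and 6 that were higher, against 34.7% and 34.5% of genes. Of the 16, 8 did not have 10 counts in both libraries of both groups. Among the called members, CDH13 had them in control alone, and CDH15 and PCDHGA2 had them in C4-2B MYCL alone. The number called is thus partly set by the filter. With at least 10 counts required in every library, only PCDH20 and PCDH7 were called. The median log2 fold change over the 16 was -0.06, beside -0.002 over all genes. None of the 15 alpha and 16 beta members reached the counts needed.

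PCDH20, a non-clustered protocadherin (chromosome 13, 61409685 to 61415849, minus strand, GENCODE 44), held 2149 and 1586 counts with the empty vector but 245 and 239 with MYCL. Both MYCL libraries were far under both control libraries. The normalized level went down from 66.3 ± 0.404 to 13.5 ± 0.270 CPM (SD, n = 2 each), or -2.30 on the log2 scale (SE 0.09; edgeR adjusted p = 2.33e-06). It was called in all 14 alternative fits run for it, with values between -2.40 and -2.11.

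PCDH7 (chromosome 4, 30720369 to 31146805, plus strand) held 4204 and 3297 counts with the empty vector but 1561 and 1609 with MYCL. The normalized level dropped from 133.9 ± 6.56 to 88.3 ± 5.21 CPM (SD, n = 2 each), or -0.60 on the log2 scale (SE 0.08; edgeR adjusted p = 6.22e-04). On log2(TPM + 0.1) the value was -0.92, a scale on which all genes tested had a median of -0.162. The overlapping antisense entry ENSG00000286596, which covers 12.4% of the exon bases of PCDH7, went from 113 and 89.3 to 34.0 and 28.4 counts. The sources used here do not say whether counting used the strand, and without it reads of the 2 genes cannot be told apart there.

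The other called members rest on few counts. CDH15 rose from 19 and 7 to 45 and 31 counts, 0.439 ± 0.205 to 2.11 ± 0.472 CPM (SD, n = 2 each), or 2.22 on the log2 scale (SE 0.48; edgeR adjusted p = 0.00713). CDH13 fell from 18 and 14 to 2 and 0 counts, at -3.24 (SE 0.93; edgeR adjusted p = 0.0256). The antisense entry CDH13-AS2, which shares 21.4% of the exon bases of CDH13, went from 92.3 and 75.4 to 9.50 and 19 counts. It held more counts than CDH13 in each C4-2B library, and the limit on strand given for PCDH7 holds here too. PCDHGA2 rose from 7 and 10 to 15 and 21 counts (edgeR adjusted p = 0.0490), and it was called in none of the 4 fits that left out a library. Such a fit leaves 1 library in a group, which is assumed to vary like the other group, and has fewer degrees of freedom, here and below. DESeq2's Wald test called CDH15, PCDH20 and PCDH7, and so did the fits without C4-2B control replicate 1 and without C4-2B MYCL replicate 2. Without C4-2B control replicate 2 CDH5 was called with those 3, and without C4-2B MYCL replicate 1 CDH13 was, at a log2 fold change of -6.82 where a lone MYCL library at 0 remained.

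CDH1 was higher in C4-2B MYCL, at 754.2 and 802.0 against 587.3 and 638.6 CPM. The log2 fold change of 0.34 (SE 0.08; edgeR adjusted p = 0.00746) passed the test but not the minimum on the fold change. The other abundant members of C4-2B were PCDH1, the protocadherin of axons and airway epithelium, at a log2 fold change of 0.28 (edgeR adjusted p = 0.0686), and CDH24 at 0.14 (edgeR adjusted p = 0.618). The gamma sum held 234 and 153 counts in control against 127 and 131 in C4-2B MYCL, or 7.19 and 6.43 against 6.89 and 7.49 CPM. The groups overlapped and the log2 fold change was 0.08 (SE 0.18; edgeR adjusted p = 0.773).

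**Figure D4:**
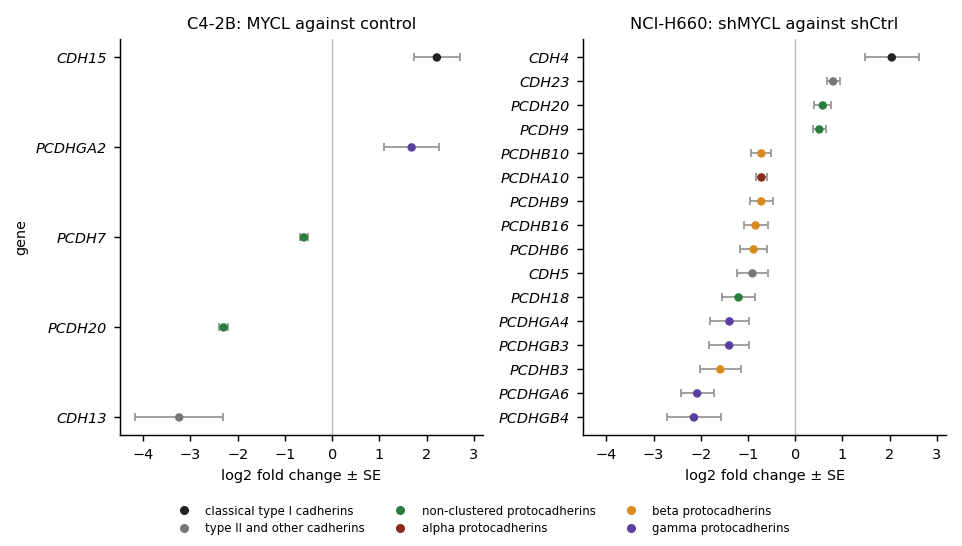
Log2 fold change with its standard error for the members called in C4-2B (left, 5 members) and NCI-H660 (right, 16 members), coloured by class. In NCI-H660 the 10 clustered members all lie below 0, at -0.72 or lower, while CDH4, CDH23, PCDH20 and PCDH9 lie above.

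In NCI-H660 cells, MYCL knockdown was accompanied by lower levels of 10 clustered protocadherins, PCDH18 and CDH5 and by higher levels of CDH23, CDH4, PCDH9 and PCDH20. Of the 54 members tested, 16 were called, 4 higher and 12 lower, against 16.2% of the 16980 genes tested, 7.18% higher and 8.99% lower. By the adjusted p alone 19 members passed, against 24.8% of genes. Of the 54, 8 did not have 10 counts in both libraries of both groups, 5 with them in shCtrl alone and 2, CDH4 among them, in shMYCL alone. The median log2 fold change of the members was -0.33, beside -0.003 over all genes. In 31 of the 54 both shMYCL libraries were under both shCtrl libraries, against 32% of all genes tested, and in 10 both were over, against 31.1%. The split by class was uneven. Of the 37 clustered members tested, 10 were called, all lower, and the median was -0.58. PCDHGB4, which was called, and PCDHA5, PCDHA9 and PCDHGA2 had 10 counts in both libraries of shCtrl alone. PCDHA7 had them in shMYCL alone, so the clustered median is partly set by the filter. With at least 10 counts required in every library, 18 of all members were called. The median over all members tested was then -0.33, as with the main filter, and the clustered median under that filter is not given. Of the 17 members outside the clustered loci, 4 were called higher and 2 lower, and the median was 0.18.

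In the beta locus all 15 beta members tested had a negative log2 fold change, between -1.59 and -0.0038, and in 13 of them both shMYCL libraries were under both shCtrl libraries. Over all 16980 genes tested, 8551 had a negative value, and in 32% both shMYCL libraries were under both shCtrl libraries. The most abundant beta member, PCDHB2, had 906 and 860 counts with shCtrl and 673 and 657 with shMYCL, 53.5 and 46.5 against 44.3 and 41.97 CPM, a log2 fold change of -0.21 (edgeR adjusted p = 0.207). PCDHB5 had 729 and 734 against 501 and 512 counts, with -0.33 (edgeR adjusted p = 0.0504). The 5 beta members that were called were less abundant: PCDHB3 went from 54 and 50 to 20 and 10 counts, PCDHB6 from 112 and 86 to 46 and 48, PCDHB9 from 109 and 112 to 55 and 62, PCDHB10 from 141 and 144 to 77 and 74, and PCDHB16 from 114 and 110 to 60 and 49. Their log2 fold changes lay between -1.59 (PCDHB3) and -0.72 (PCDHB9 and PCDHB10).

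In the alpha locus, PCDHA10 and PCDHA4 carried most counts, and only PCDHA10 was called. It had 1035 and 950 counts with shCtrl and 505 and 550 with shMYCL, and its level dropped from 56.2 ± 6.83 to 34.2 ± 1.34 CPM (SD, n = 2 each), or -0.72 on the log2 scale (SE 0.12; edgeR adjusted p = 6.21e-04). PCDHA4 had 617 and 608 against 430 and 432 counts, at -0.31 (edgeR adjusted p = 0.0774). PCDHAC2, the last alpha member along the locus and a form found in most neurons, had 178 and 224 against 163 and 153 counts, at -0.14 (edgeR adjusted p = 0.584). Of the 11 alpha members tested, 10 had a negative value, against 8551 of all 16980 genes tested, and the alpha median was -0.60.

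**Figure D5:**
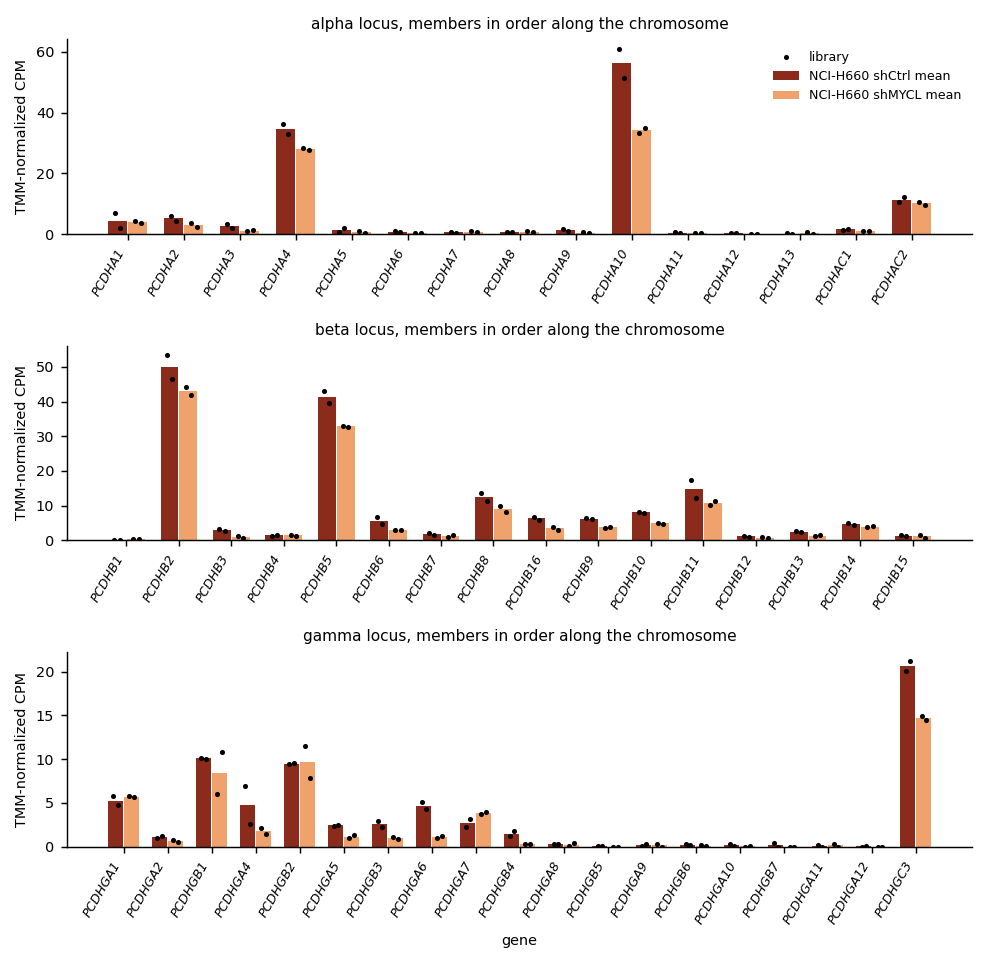
TMM-normalized CPM of the clustered members in NCI-H660, in their order along chromosome 5; bars are means of 2 libraries and points are the libraries. PCDHA4, PCDHA10, PCDHB2 and PCDHB5 stand well above their neighbours, and the shMYCL bars lie under the shCtrl bars for PCDHA10, for the 5 called beta members and for PCDHGA4, PCDHGA6, PCDHGB3 and PCDHGB4.

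In the gamma locus 8 of the 11 members tested had a negative value, against 8551 of all 16980 genes tested. PCDHGA6 fell from 86 and 79 to 15 and 19 counts, a log2 fold change of -2.08 (SE 0.35; edgeR adjusted p = 5.25e-04), and PCDHGB4 from 20 and 32 to 5 and 5 counts. PCDHGA4 fell from 117 and 47 to 32 and 23 counts, and PCDHGB3 from 50 and 41 to 17 and 13. In other members the groups overlapped in CPM. PCDHGB1 had 172 and 185 against 92 and 170 counts, PCDHGB2 had 159 and 177 against 175 and 122, and PCDHGA1 had 98 and 87 against 87 and 88. PCDHGC3, the most abundant gamma member, had 340 and 392 against 227 and 226 counts, with a log2 fold change of -0.49 (edgeR adjusted p = 0.0168) that was just under the minimum.

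The sums over each locus do not depend on how reads in shared exons were split between alpha or gamma members, and the beta sum is given beside them. The alpha sum fell from 2246 and 2063 to 1326 and 1311 counts, 122.1 ± 14.8 to 85.5 ± 2.5 CPM (SD, n = 2 each), or -0.51 on the log2 scale (SE 0.11; edgeR adjusted p = 0.00350). The beta sum went from 2925 and 2758 to 1895 and 1876 counts, at -0.40 on the log2 scale (SE 0.11; edgeR adjusted p = 0.0141). The gamma sum went from 1162 and 1188 to 743 and 763 counts, at -0.44 (SE 0.11; edgeR adjusted p = 0.00767). Only the alpha sum passed the minimum of 0.5, and it was at -0.38 without NCI-H660 shCtrl replicate 1 and -0.48 without NCI-H660 shMYCL replicate 2. With the loci summed in this way, 7 were called in NCI-H660 in place of 16, the alpha sum and 6 of the 16 (CDH4, CDH5, CDH23, PCDH9, PCDH18 and PCDH20).

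Outside the clustered loci, CDH23 had 767 and 1180 counts with shCtrl and 1509 and 1427 with shMYCL. Both shMYCL libraries were above both shCtrl libraries, and the normalized level went up from 54.6 ± 13.1 to 95.2 ± 5.77 CPM (SD, n = 2 each), or 0.80 on the log2 scale (SE 0.14; edgeR adjusted p = 6.31e-04). The antisense gene C10orf105, which overlaps 18.9% of its exon bases, had between 19.7 and 36.4 counts in NCI-H660. CDH24, a type II cadherin, had 671 and 987 against 956 and 968 counts, at 0.42 (edgeR adjusted p = 0.0288), under the minimum. CDH4 rose from 7 and 5 to 18 and 26 counts. CDH5, VE-cadherin, fell from 87 and 99 to 57 and 29 counts, at -0.91 (edgeR adjusted p = 0.0482). CDH5 is itself 1 of the 3 endothelial markers listed. Of the others, PECAM1 had 1 count in NCI-H660 shCtrl replicate 1 and 0 in the other 3 NCI-H660 libraries, and VWF had 40 and 34 counts with shCtrl and 18 and 8 with shMYCL. None of the 3 was at 1 TPM in every library of a line, and their sum was between 2.87 and 3.64 TPM with shCtrl and between 0.883 and 2.53 with shMYCL. Their part in the result was not tested.

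Among the non-clustered protocadherins, PCDH9 rose from 272 and 294 to 376 and 325 counts, 15.98 ± 0.0991 to 22.8 ± 2.82 CPM (SD, n = 2 each), at 0.51 (edgeR adjusted p = 0.0151). PCDH20 rose from 138 and 212 to 233 and 221 counts, at 0.58 (SE 0.18; edgeR adjusted p = 0.0271). PCDH18 fell from 83 and 59 to 28 and 26 counts, at -1.20 (edgeR adjusted p = 0.0190). PCDH7 had 829 and 821 against 830 and 767 counts and PCDH1 had 953 and 1130 against 945 and 988, at 0.15 and 0.09, and neither passed the test. Among the type I cadherins, CDH1 had -0.23 (edgeR adjusted p = 0.114), CDH3 had -0.32 (edgeR adjusted p = 0.0437) and CDH2 had 0.42 (edgeR adjusted p = 0.127).

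Many of the NCI-H660 calls changed when a library was left out. Without shCtrl replicate 1, 7 members were called (CDH23, PCDH9, PCDH15, PCDHA10, PCDHGA6, PCDHGB4 and PCDHGC3), and the log2 fold change of PCDHGA4 moved from -1.39 to -0.50 and that of PCDH20 from 0.58 to 0.37. Without shCtrl replicate 2, 18 were called, 12 of them among the 16. Without shMYCL replicate 1, 10 were called and CDH5 was at -1.49, and without shMYCL replicate 2, 6 were called and CDH5 was at -0.48. CDH23, PCDHA10 and PCDHGA6 were called in all 4 of these fits. DESeq2's Wald test called 6 of the 16 (CDH23, PCDH9, PCDHA10, PCDHB3, PCDHGA4 and PCDHGA6). CDH4 and PCDHB9 were called in none of the 4, with CDH4 between 1.77 and 2.37 and PCDHB9 between -0.78 and -0.65.

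The changes in the 2 lines were compared as an interaction, the C4-2B change (MYCL minus control) minus the NCI-H660 change (shCtrl minus shMYCL). MYCL itself differed by 8.26 on the log2 scale between the C4-2B groups and by -3.06 between NCI-H660 shMYCL and shCtrl, with an interaction of 5.19. The line, the size of the MYCL change and the method (overexpression or knockdown) cannot be told apart in it. Of 60 members tested, 2 were called, 1 higher and 1 lower, against 17.9% of the 19605 genes tested (9.59% higher and 8.33% lower). By the adjusted p alone 3 passed, against 20.2% of genes. PCDH20 was lower at high MYCL in both lines, by 2.30 in C4-2B and by 0.58 in NCI-H660 on the log2 scale. The difference of -1.72 (SE 0.20; edgeR adjusted p = 1.24e-04) was called in all 17 alternative fits. PCDH15 was the other, and it rests on 0 and 0 counts in C4-2B control and 2 and 1 in C4-2B MYCL. PCDH15 was lost in 7 of the 8 fits that left out a library, all but the one without NCI-H660 shCtrl replicate 1, and DESeq2 did not call it. PCDH7 had a difference of -0.45 (edgeR adjusted p = 0.0337), under the minimum. Of the 41 clustered members tested, 0 were called by edgeR or by DESeq2. In edgeR 3 of them had an unadjusted p under 0.05, against 6370 of all 19605 genes tested. The counts of the clustered members in C4-2B leave little depth for this comparison.

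The partners of classical cadherins were taken from lists compiled from general knowledge, and their counts stand beside 19.9% of all genes called in C4-2B (11.8% higher and 8.12% lower) and 16.2% in NCI-H660 (7.18% higher and 8.99% lower). Of 18 catenins and junction partners tested in C4-2B, 2 were called lower, CTNNA2 (-2.23) and NECTIN1 (-0.56). In NCI-H660, 3 of 18 were called higher, CTNND1 (1.07), CTNNAL1 (0.54) and VCL (0.52). CTNND1, p120-catenin, which binds the inner part of classical cadherins and keeps them at the surface, was at 95.1 and 95.3 TPM in C4-2B control but at 2.95 and 2.15 in NCI-H660 shCtrl and 5.79 and 4.98 in NCI-H660 shMYCL. Its neural relative CTNND2 was at 0 in all C4-2B libraries and between 6.51 and 8.19 TPM in NCI-H660. Beta-catenin (CTNNB1) was at 116.4 and 121.0 TPM in C4-2B control and 458.9 and 437.8 in NCI-H660 shCtrl. Its fitted log2 difference was 1.28 (SE 0.08), and that of CTNND1 was -5.95 (SE 0.11). TPM of genes in general lay higher in NCI-H660, by a median of 0.52 on log2(TPM + 1). Of the 18 listed genes tested between the lines, 6 were called higher and 5 lower in NCI-H660, against 36.5% and 33.3% of all genes. Of the desmosomal genes tested, 2 of 5 were called lower in C4-2B (DSC1 and DSC3) and 1 of 5 lower in NCI-H660, desmoplakin (DSP), at -0.89.

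Among regulators of CDH1 transcription, 3 of 11 tested in C4-2B were called, against 19.9% of all genes. ELF3, an epithelial factor, rose by 1.90, and SNAI2, a repressor of CDH1, rose by 0.95, while TCF4 fell by 1.11 on the log2 scale. In NCI-H660, 1 of 13 was called, ELF3 at -0.73, against 16.2% of all genes. ZEB1 and TWIST1, also repressors of CDH1, were at 0.0240 TPM or less in C4-2B and at 1.42 and 3.44 TPM on average in NCI-H660 shCtrl. SNAI2 went the other way, at 3.29 and 4.15 TPM in C4-2B control and 0.410 and 0.177 in NCI-H660 shCtrl. SNAI1 was not called between the lines, at -0.18. Of the 15 regulators of CDH1 tested between the lines, 9 were called higher and 4 lower in NCI-H660, against 36.5% and 33.3% of all genes. Of 16 regulators of clustered protocadherin choice, 5 were called lower in C4-2B: CTCF (-0.75), the cohesin subunits SMC1A (-0.56), SMC3 (-0.51) and STAG1 (-0.76), and TRIM28 (-0.63), against 8.12% of all genes called lower. In NCI-H660, where the clustered loci are used, 0 of the 16 were called by edgeR or by DESeq2, against 16.2% of all genes. In edgeR 6 of the 16 had an unadjusted p under 0.05, against 6303 of all 16980 genes tested. Of the cadherin-cleaving proteases, MMP14 was called higher in C4-2B (1 of 9, at 1.25) and ADAM10, the main sheddase of E- and N-cadherin, was called lower in NCI-H660 (1 of 8, at -0.66). Of the other cadherin superfamily genes, CLSTN3 rose (1.12) and FJX1 fell (-0.84) in C4-2B among 9 tested, and FAT3 fell (-2.29) in NCI-H660 among 14. The median log2 fold changes of these lists, in C4-2B and then in NCI-H660, were 0.09 and 0.16 for the catenins and junction partners, -0.42 and 0.11 for the desmosomal genes, 0.01 and -0.10 for the regulators of CDH1, -0.16 and 0.15 for those of protocadherin choice, 0.22 and -0.14 for the proteases, and 0.04 and -0.05 for the other superfamily genes.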

How the data were processed

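The authors deposited estimated counts per gene and TPM values for 8 poly(A) libraries on build hg38 per the labels; the aligner, the counter and its use of strand are not given in the sources used here. The estimated counts deposited by the authors carry no normalization between libraries (36.2% of the members' non-zero values are off a whole number by over 0.01) and were rounded. The TPM deposited by the authors are scaled by gene length, and all 76 members are in that table. Groups and replicate numbers came from the labels. Over all genes, edgeR 4.0.16 (R 4.3.3; TMM, filterByExpr, quasi-likelihood test) was run separately per line; the line contrast and interaction used all 8 libraries. A call needed a Benjamini-Hochberg adjusted p under 0.05 with a log2 difference of 0.5 or more, up or down. The SE is the difference divided by the root of its F statistic. Intervals are at 95%. The tests were tested on simulated data. Alternatives were DESeq2 1.42.0, limma 3.58.1 on log2(TPM + 1) or log2(TPM + 0.1), other filters and thresholds, relative log expression factors, a replicate block, summed loci and leaving out each library. Members, gene lists and tests were chosen with earlier results of these data known. Named are members called for MYCL or the interaction, the 10 with the highest mean TPM in a group, CDH1 to CDH3, the 5 at each end between the lines and the 4 most abundant of each locus; others named were chosen after their values were seen. GENCODE 44 holds all 76 identifiers.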

Additional observations from a re-analysis of the deposited data

Results flagged for a closer look

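Both members called in the interaction are listed because the effect of high against low MYCL differed between the lines. For PCDH20 the C4-2B change minus the NCI-H660 change was -1.72 on the log2 scale, with both lines lower at high MYCL (2149 and 1586 counts in C4-2B control against 245 and 239 in C4-2B MYCL, and 138 and 212 in NCI-H660 shCtrl against 233 and 221 in NCI-H660 shMYCL). For PCDH15 it was 4.51, with 0 and 0 counts in C4-2B control against 2 and 1 in C4-2B MYCL, and 95 and 76 in NCI-H660 shCtrl against 110 and 119 in NCI-H660 shMYCL, so that its C4-2B part is within the 3 counts that a count of 0 allows.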

How the results depend on the processing

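In C4-2B 5 members were called. DESeq2 called 3, and 2 were called with at least 10 counts in every library or with limma on log2(TPM + 1), log2(TPM + 0.1) or log2(TPM + 1) without a filter. Leaving out each library gave between 3 and 4. In NCI-H660 16 were called. DESeq2 called 6, all among the 16. With log2(TPM + 1) 1 was called, with log2(TPM + 0.1) 2, of which 1 was among the 16, and without the TPM filter 0 (18 at an unadjusted p under 0.05 in limma). With a minimum of 1 or in the fit of all 8 libraries 7 were called, all among the 16, and with the loci summed 7, of which 6 were. Leaving out each library gave between 6 and 18, and 12 of the 18 were among the 16. For the interaction 2 were called. DESeq2 called 1, log2(TPM + 1) 7, and log2(TPM + 0.1) and log2(TPM + 1) without the filter 6 each. PCDH20 was in each of these and PCDH15 in none. Leaving out a library gave between 1 and 3. Between the lines 59 were called, against 37 with either filtered TPM setting and 21 with the loci summed, where fewer genes enter. With at least 10 counts in every library 6 were called, which were the only 6 members tested. Leaving out a library gave between 56 and 61. On log2(TPM + 1) the median of all genes moved to -0.14 in C4-2B, -0.11 for the interaction and 0.52 between the lines. The cause of the other changes was not tested.

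In NCI-H660 the alpha sum was -0.46 on log2(TPM + 1) with or without the filter and -0.48 on log2(TPM + 0.1), where it was not called, nor was its -0.51 with a minimum of 1; leaving out a library gave between -0.63 and -0.38. The beta and gamma sums, -0.40 and -0.44, were called once no minimum was set, and lay between -0.50 and -0.28 and between -0.49 and -0.39 with a library left out. Signs changed for values that were not called: CDH24 in C4-2B (-0.0131 on log2(TPM + 1) with or without the filter, -0.0189 on log2(TPM + 0.1)), the gamma sum in C4-2B (-0.0065 without control replicate 2; left-out range -0.0065 to 0.1525), and in NCI-H660 PCDHGA1 (-0.0278 without shCtrl replicate 2; range -0.0278 to 0.2748), PCDHGB1 (0.1172 without shMYCL replicate 1; range -0.7325 to 0.1172) and PCDHGB2 (-0.2758 on log2(TPM + 1) with or without the filter, -0.3391 on log2(TPM + 0.1), -0.2729 without shMYCL replicate 1; range -0.2729 to 0.2825).

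Replicate numbers shared across groups did not pair the libraries: the deviations of same-numbered libraries correlated across genes at 0.039 in C4-2B and 0.056 in NCI-H660. With the number as a replicate block, 5, 20, 2 and 57 members were called in C4-2B, NCI-H660, the interaction and between the lines. Depth limits the clustered loci in C4-2B, where a library held between 139 and 273 counts over all 50 clustered members.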
